A study of Drosophila melanogaster with 6 samples.

Results

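The genes described here handle the neurotransmitter GABA, or belong to the oxygen-sensing pair that GABA breakdown feeds into. They are 8 of the 17807 genes in the tables, chosen by symbol: Gad1, Gat, Gabat, Ssadh, GABA-B-R1, GABA-B-R2, sima and Hph. Their transcripts were measured in 6 RNA-seq libraries of whole lymph glands, the larval blood-forming organ of Drosophila melanogaster, dissected from third-instar larvae. All libraries were of wild-type genotype, with the background strain BL-30140 crossed to w1118, from larvae kept on semi-defined medium at 25 °C. There was no treatment, so the design gives a profile of the unperturbed organ. Apart from the replicate number, the sample titles differ only by a suffix, GG or CB, taken here to mark the experimenter. The libraries are called set A (GG) and set B (CB) here, with 3 replicates each. Levels are given as TPM (a relative transcript abundance corrected for length) or as RSEM's expected count, the estimated number of reads per gene.

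GABA is made from glutamate by glutamate decarboxylase and is carried into cells by the membrane transporter Gat. Inside the mitochondrion it is broken down to succinate by GABA transaminase and succinic semialdehyde dehydrogenase, a route called the GABA shunt. Outside the cell it acts on ion-channel receptors and on GABA-B receptors, which couple to G proteins. In the lymph gland, blood progenitors have been described as taking up GABA that comes from neurosecretory cells in the brain. The succinate they make from it inhibits the prolyl hydroxylase Hph, which otherwise marks the hypoxia factor Sima for destruction. GABA-B receptors on progenitors have been described as acting through calcium to keep them undifferentiated.

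Transcripts for the breakdown enzymes and for the Sima arm were found in every library, and those for GABA synthesis in a single one. A gene was called detected when each of the 6 libraries held it at 1 TPM or more, and 5 of the 8 genes met this: sima, Ssadh, Hph, Gabat and Gat. GABA-B-R2 reached that level in 4 libraries, and GABA-B-R1 and Gad1 in 0. By the same measure, 7371 genes, or 41.4% of all listed, were detected, with a median mean level of 22.7 TPM and a median coefficient of variation of 10.1%. Total expected counts per library ranged from 18689689 to 26003822, and all 10 markers of lymph gland cells passed that level throughout. Summed salivary gland markers reached 5319 TPM in set B replicate 2 (13.9 to 79.1 TPM elsewhere), and fat body markers 627.8 TPM in set A replicate 3 (6.32 to 20.4 TPM elsewhere). No 2 libraries agreed within sampling noise.

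**Figure D1:**
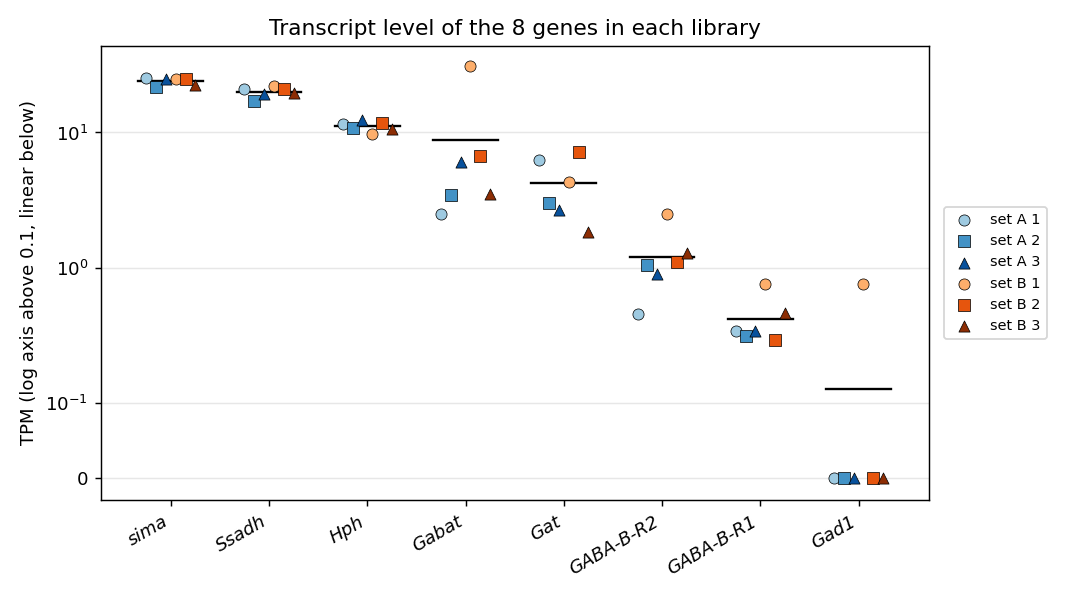
TPM of the 8 genes in each of the 6 libraries (log axis above 0.1, linear below), with the mean as a bar; blue is set A and orange set B. The points of sima, Ssadh and Hph lie close together, while Gabat spreads from 2.51 to 30.82 TPM and Gad1 is listed at 0 in 5 libraries.

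Gad1 (FBgn0004516) encodes the decarboxylase that makes GABA and lies on chromosome 3L at 4074077 to 4088744 of BDGP6.54. It had 39 counts in set B replicate 1 and none in the remaining 5 libraries. The 39 counts correspond to 0.76 TPM and to 1.99 CPM, the count scaled to the library total (95% exact Clopper-Pearson interval 1.41 to 2.72, counting error only). A count of 0 allows up to 3 counts in a library, which is between 0.0442 and 0.0617 TPM here. The 0.76 TPM of set B replicate 1 was 12.3-fold above the highest of these limits, leaving out the counting error of the 39 counts. Gad1 was therefore not detectable in 5 libraries at this depth. VGAT, which loads GABA into synaptic vesicles, followed the same pattern, with 18 counts in set B replicate 1 and 0 elsewhere.

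Gat (FBgn0039915, chromosome 4 at 629691 to 635350) encodes the plasma membrane GABA transporter, known in flies for GABA uptake by astrocyte-like glia. It was at 6.25, 3.03 and 2.67 TPM in replicates 1, 2 and 3 of set A, and at 4.33, 7.18 and 1.83 TPM in those of set B. The highest library, set B replicate 2, was 3.92-fold above the lowest, set B replicate 3, and both belong to the same set. Between 110 and 388 counts stood behind each value, and the coefficient of variation was 50.2%. Only 7.49% of the detected genes had a lower mean level.

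Summed markers of the ring gland, an endocrine organ beside the lymph gland, were high in the same 2 libraries as Gat. Their 7 genes summed to 3047 TPM in set A replicate 1 and 2893 TPM in set B replicate 2, against 1005 to 1866 TPM in the other 4, and none was listed at 0. The order did not match throughout: set B replicate 3 had more ring gland signal than the remaining 3 libraries and the lowest Gat level. Of the 7 markers, jhamt and Akh were highest in set B replicate 3, at 29.73 and 180.36 TPM. The markers spok, phtm, dib, sad and nvd were highest in set A replicate 1 or set B replicate 2. Glia markers summed to between 24.8 and 53.4 TPM, highest in set B replicate 1, with repo and alrm, which define glia and astrocyte-like glia, listed at 0 in set A replicate 1 and set B replicate 3. Most of that sum was nrv2, at 44.54, 43.08 and 40.48 TPM in set B replicate 2, set A replicate 1 and set B replicate 1, and at 23.83 to 27.63 TPM in the others. Those 3 libraries were also the highest 3 for Gat, in the same order. They were the highest 3, in another order, for the glia marker moody, at 1.23 to 3.26 TPM against 0.74 to 0.98 TPM. The glia markers wrapper, alrm and repo did not follow Gat. Of these, wrapper and alrm were at 5.44 and 1.62 TPM in set B replicate 1, and at most 0.14 and 0.06 TPM in the others. The marker repo was at 2.63 TPM in set B replicate 1, at 0.71 TPM in set B replicate 2 and at 0 in set A replicate 1. The part of ring gland or glial cells in the Gat values was not tested. In whole organs a smaller number of cells of a type and less RNA per cell cannot be told apart, for this gene and for all that follow.

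Gabat (FBgn0036927, 3L at 19997714 to 20000686) encodes GABA transaminase, which converts GABA to succinic semialdehyde. Its levels were 2.51, 3.43 and 6.02 TPM in replicates 1, 2 and 3 of set A, and 30.82, 6.72 and 3.48 TPM in those of set B. Set B replicate 1 stood far above the rest, with 801 counts against 91 to 169, and the other 5 libraries of both sets lay within 2.51 to 6.72 TPM. Its level there was 8.86 times the median elsewhere. Of 8095 genes with mean TPM of at least 1, 137 (1.69%) lay as far above in that library. Gabat shares 29 exonic bases, 1.24% of its exonic length, with Tom20 on the opposite strand, which was at 182 TPM on average. A read lying wholly there could not be told apart if counting did not use strand. The posterior SD of the Gabat count, which measures uncertain read assignment, was 0 in every library.

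Ssadh (FBgn0039349, 3R at 25624805 to 25626924) encodes succinic semialdehyde dehydrogenase, the enzyme that completes the shunt to succinate. In contrast to Gabat it was nearly level, at 21.08, 16.98 and 19.38 TPM in set A and 21.93, 20.96 and 19.74 TPM in set B, in order of replicate. The sets overlapped, and the highest library was 1.29-fold above the lowest. The mean was 20.01 ± 1.75 TPM (SD, n = 6), above 45.0% of detected genes. The ratio of Ssadh to Gabat therefore moved with Gabat, from 8.4 in set A replicate 1 to 0.712 in set B replicate 1 (mean 4.35 ± 2.63, SD, n = 6). Set B replicate 1 was the only one of the 6 libraries in which the transaminase transcript exceeded that of the dehydrogenase, and without it the mean ratio was 5.07.

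The GABA-B receptor works as a dimer, in which one subunit binds GABA and the other couples to the G protein. GABA-B-R1 (FBgn0260446, 2L at 15016331 to 15034704) was at 0.34, 0.31 and 0.34 TPM in set A and 0.75, 0.29 and 0.46 TPM in set B. These values rest on 26 to 71 counts per library, and set B replicate 1 was again the highest. GABA-B-R2 (FBgn0027575, 3R at 21770333 to 21775840) was at 0.45, 1.05 and 0.89 TPM in set A and 2.47, 1.09 and 1.28 TPM in set B. Every set B library lay above every set A library for GABA-B-R2, by a narrow margin of 1.05 against 1.09 TPM at the closest. Within each library GABA-B-R2 was the more abundant subunit, by a factor of 1.32 in set A replicate 1 and between 2.62 and 3.76 in the others.

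Genes of the remaining GABA machinery were near 0 outside set B replicate 1. None of the 6 genes on that list was detected by the rule above, and 5 were under that level in every library. The ion-channel subunit gene Rdl had 96 counts in set B replicate 1 and 0 to 3 in each of the others. A further GABA-B receptor gene, GABA-B-R3, had 46 counts there and 0 to 2 elsewhere. Lcch3, another channel subunit gene, was at 1.31 TPM in that library and at most 0.10 TPM in the others. Grd, related to the channel subunits, had 0 to 2 counts per library, and CG8916 had 0 in all 6.

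Neuron markers were high in the same library. All 8 of them peaked in set B replicate 1, where they summed to 25.8 TPM, against 1.62 to 4.28 TPM in the other 5 libraries. Summed neuron markers ranged from 1.62 to 2.23 TPM in set A and from 2.32 to 25.8 TPM in set B. VGlut and VAChT, which define glutamatergic and cholinergic neurons, were both listed at 0 in set A replicates 2 and 3 and set B replicate 3, and VAChT also in set A replicate 1. In set B replicate 1 they were at 1.56 and 1.49 TPM. The other 6 neuron markers had counts in every library. The general neuron marker elav was at 13.45 TPM in set B replicate 1 and at 1.03 to 2.59 TPM in the others, and the synaptic genes nSyb and Syt1 had 7 to 40 and 13 to 22 counts in the others. Of the 5 glia markers, 4 also peaked there. The part of neural cells in the Gad1, Gabat and GABA-B receptor values was not tested. Without set B replicate 1, Gad1 had 0 counts in total, while Gabat, GABA-B-R1 and GABA-B-R2 were still found in each library, with at least 91, 26 and 39 counts.

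**Figure D2:**
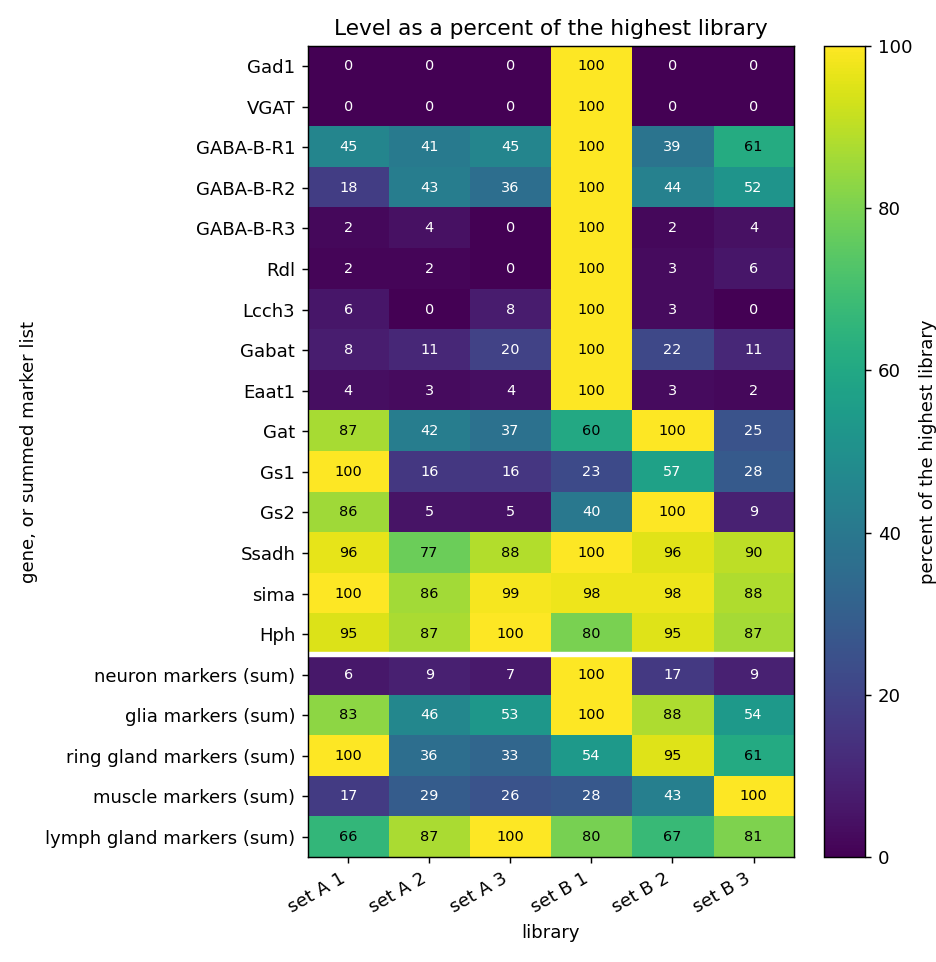
Level of 15 genes, and summed TPM of 5 marker lists, in each library as a percent of the highest library for that row. Gad1, VGAT, the receptor genes, Gabat and Eaat1 peak in set B replicate 1, as do neuron and glia markers, and Gat, Gs1 and Gs2 are highest in set A replicate 1 and set B replicate 2, as are ring gland markers.

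Sima, encoded by sima (FBgn0266411, 3R at 30058311 to 30121798), is the fly counterpart of the hypoxia-inducible factor alpha subunit. It was the most abundant of the 8 transcripts, at 25.36, 21.88 and 25.03 TPM in set A and 24.73, 24.76 and 22.29 TPM in set B. The sets overlapped, and all 6 values lay within 1.16-fold of each other. The coefficient of variation was 6.30%, the lowest of the 8 genes and below the 10.1% median of detected genes. Its mean of 24.0 ± 1.51 TPM (SD, n = 6) was above 51.8% of detected genes.

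Hph (FBgn0264785, 3R at 5257037 to 5269507) encodes the prolyl hydroxylase that, when oxygen is present, marks Sima for the ubiquitin ligase. Its levels were 11.64, 10.71 and 12.28 TPM in set A and 9.81, 11.70 and 10.64 TPM in set B, again with overlapping sets. The mean was 11.1 ± 0.902 TPM (SD, n = 6), with a coefficient of variation of 8.10%. The ratio of Hph to sima was 0.459, 0.489 and 0.491 in set A and 0.397, 0.473 and 0.477 in set B. Set B replicate 1 was the lowest in this ratio, and the other 5 libraries lay within 0.459 to 0.491. Hph shares 426 exonic bases, 9.92% of its exonic length, with the pseudogene CR45033 on the same strand. It was the only one of the 8 genes whose read assignment was uncertain, by at most 0.351% of the count.

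The partner of Sima and the ligase that removes it were all detected, at steady levels. All 6 genes of this list were detected, with a median coefficient of variation of 7.14%. The DNA-binding partner gene tgo was at 19.7 ± 1.198 TPM and Vhl, which recognises hydroxylated Sima, at 16.8 ± 1.31 TPM (SD, n = 6 each). The mean level of sima was thus close to that of tgo, at 24.0 and 19.7 TPM. The ligase subunit genes EloB, EloC, Cul2 and Roc1a ranged from 44.9 to 198 TPM on average.

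Known targets of Sima differed widely in level. Of 5 genes, 3 were detected in all libraries. The growth regulator genes scyl and chrb, which Sima induces in hypoxia, were at 122 ± 19.6 and 17.2 ± 3.10 TPM (SD, n = 6 each). Ldh, the lactate dehydrogenase gene, was at 2.31, 1.07 and 2.34 TPM in set A and 6.87, 5.66 and 19.24 TPM in set B. The sima transcript stayed within 21.88 to 25.36 TPM, and Sima protein, on which Hph acts, was not measured. Muscle markers summed to 1470 TPM in set B replicate 3, the library with the highest Ldh, and to 256.5 to 633.5 TPM in the others. The order did not match throughout. Set B replicate 1 had less muscle signal than set A replicate 2, at 404.8 and 426.0 TPM, but more Ldh, at 6.87 and 1.07 TPM. No muscle marker was listed at 0, and the part of muscle in the Ldh values was not tested. The FGF receptor gene btl was at 4.39 and 4.23 TPM in set A replicate 1 and set B replicate 2, and at most 1.28 TPM elsewhere.

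**Figure D3:**
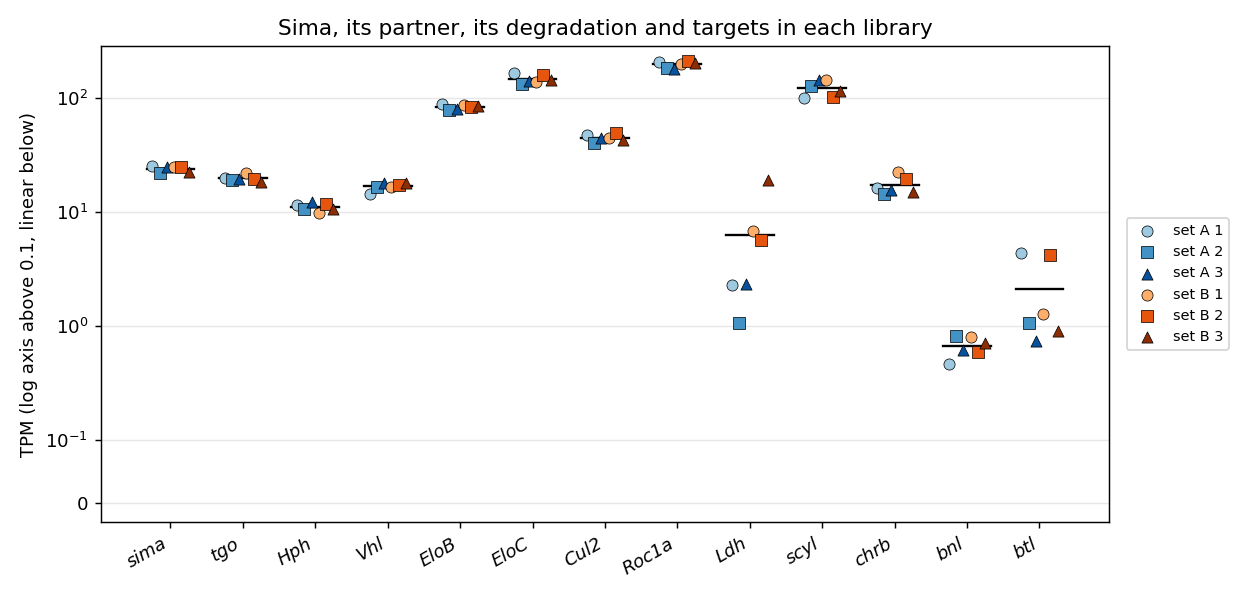
TPM of sima, its partner tgo, the genes of Sima hydroxylation and degradation (Hph, Vhl, EloB, EloC, Cul2, Roc1a) and 5 Sima targets (Ldh, scyl, chrb, bnl, btl) in each library, with the mean as a bar, on a log axis above 0.1 and linear below. The points of sima, tgo, Hph and Vhl overlap closely between sets, while Ldh runs from 1.07 to 19.24 TPM.

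The tables give a mean transcript length per gene and library, weighted by the estimated share of each transcript, which limits the mix of transcripts. Gene sima has 4 listed transcripts, which code for proteins of 1593, 1507, 869 and 426 amino acids. Its weighted length was shortest in set B replicate 3, at 5609.1 nt, and longest in set B replicate 1, at 5843.1 nt, while the transcripts for the longest proteins measure 5978 and 6178 nt and the others 4704 and 3543 nt. The transcripts for the 2 long proteins together must then hold between 61.4% and 84.9% of sima transcripts in set B replicate 3, and between 77.3% and 94.5% in set B replicate 1. The ranges of all 6 libraries overlap, so no difference in this share follows from the lengths. For Hph, at least 19.1% to 27.6% of transcripts, depending on the library, coded for the longest protein of 478 amino acids.

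**Figure D4:**
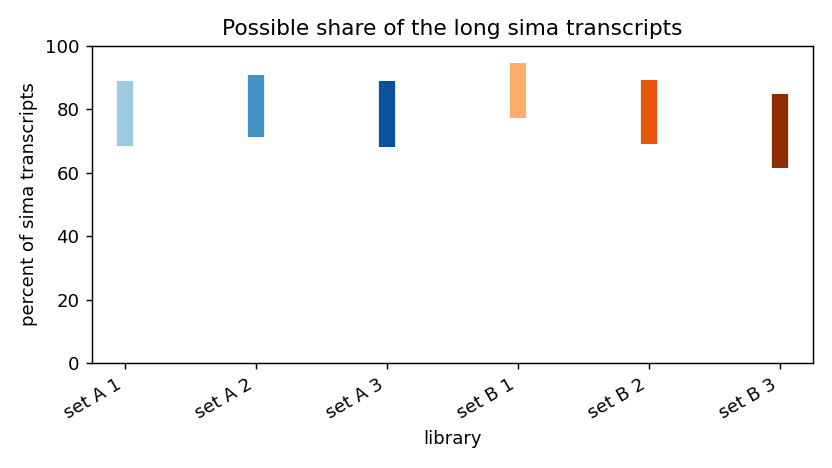
Range of the share of sima transcripts, in percent, that can code for the proteins of 1507 and 1593 amino acids, given the weighted gene length in each library. Bars run from the lowest to the highest possible share, from 61.4% at the bottom of set B replicate 3 to 94.5% at the top of set B replicate 1, and all overlap.

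For Gat the weighted length was 2895 nt in every library, the length of the transcript for the 636 amino acid protein, so 100% of the estimate fell on it and none on the transcript of 2853 nt for the 508 amino acid protein. All GABA-B-R1 reads were likewise given to the 5642 nt transcript rather than the 4922 nt one, and both code for the same protein of 841 amino acids. Of GABA-B-R2 transcripts, at least 67.7% in every library were of the form for the 1220 amino acid protein. The transcripts of Gabat and of Ssadh differ outside the coding region, and each gene codes for 1 protein, of 486 and 509 amino acids. These shares are estimates by the authors' software without a stated error.

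Ordered by mean TPM, the genes ran sima, Ssadh, Hph, Gabat, Gat, GABA-B-R2, GABA-B-R1 and Gad1. Of the 7 neighbour pairs, 4 kept their order in all 6 libraries: sima above Ssadh, Ssadh above Hph, Gat above GABA-B-R2 and GABA-B-R2 above GABA-B-R1. Each had a two-sided exact permutation p of 0.0312, the smallest that 6 libraries can give, and 0.0547 after adjustment over the 7 pairs. The pairs were picked by mean TPM in the same libraries, so the p-values here are not an independent test of the order. Even the closest pair, sima and Ssadh, differed in the same direction throughout, with sima higher by a factor of 1.13 to 1.29. Hph exceeded Gabat in 5 libraries and Gabat exceeded Gat in 4, with adjusted exact permutation p-values of 0.219 and 0.406, so these neighbours did not differ beyond their spread. GABA-B-R1 exceeded Gad1 in 5 libraries, with an adjusted exact permutation p of 0.0875. Without set B replicate 1, 6 of the 7 pairs kept their order, and the exception was Gabat and Gat.

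The succinate enzymes and glutamate dehydrogenase were more abundant by mean TPM than either shunt enzyme. All 7 succinate enzymes, the subunits of succinate dehydrogenase and of succinyl-CoA synthetase, were detected, with means from 70.6 to 206 TPM and a median coefficient of variation of 7.32%. The dehydrogenase subunit gene SdhA, for one, was at 82.6 ± 5.36 TPM (SD, n = 6). On the glutamate side, Gdh, the glutamate dehydrogenase gene, was at 436 ± 85.0 TPM (SD, n = 6). Of the 5 genes described on that side, which are Gdh, Gs1, Gs2, Eaat1 and b, 2 were detected. The decarboxylase gene b (black) had 0 to 6 counts per library. The glutamine synthetase genes Gs1 and Gs2 shared the high libraries of Gat: Gs1 was at 257 and 147 TPM and Gs2 at 8.32 and 9.69 TPM in set A replicate 1 and set B replicate 2, against at most 73.2 and 3.89 TPM in the others. The glutamate transporter gene Eaat1, known from astrocyte-like glia, was at 5.71 TPM in set B replicate 1 and at most 0.22 TPM elsewhere.

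Genes that carry GABA-B and calcium signals inside the cell far exceeded the receptor genes in level. Of 10 genes, 9 were detected, with a median mean level of 56.2 TPM. The G protein subunit genes Galphai and Galphao were at 49.3 ± 5.68 and 26.1 ± 3.81 TPM (SD, n = 6 each). CaMKII, the calcium-dependent kinase gene, was at 67.3 ± 4.78 TPM, and Itpr, which encodes the calcium release channel, at 14.6 ± 0.650 TPM. The exception was wg, the Wingless ligand gene, at 0.25 to 1.22 TPM.

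Set B was then set against set A. The suffix, taken to mark the experimenter, is the sole labelled difference. What it marks cannot be told apart from larvae, day, dissection or tissue carried along. With edgeR's quasi-likelihood test, 0 of the 7 genes that could be tested had an adjusted p under 0.05, with 0 at an unadjusted p under 0.05, against a background of 0% of 8491 genes called. Of those 8491 genes, 353 had an unadjusted p under 0.05, and DESeq2 called 22. Gad1 was not tested, since its counts were too low. DESeq2 also called 0 of the 7, with 1 (Gabat) at an unadjusted p under 0.05. GABA-B-R2 differed by 0.98 on the log2 scale (SE 0.46, higher in set B, edgeR adjusted p = 0.9997), from 0.797 ± 0.311 TPM to 1.61 ± 0.748 TPM (SD, n = 3 each). It was the 1 gene of the 7 whose libraries did not overlap between sets, against 6.11% of all tested genes in either direction and 4.53% with set B higher. Gabat differed by 1.71 (SE 0.83, edgeR adjusted p = 0.9997) and GABA-B-R1 by 0.57 (SE 0.38, edgeR adjusted p = 0.9997). Without set B replicate 1 the log2 changes were 0.56 for GABA-B-R2, 0.33 for Gabat and 0.18 for GABA-B-R1. The other log2 changes were 0.13 for Gat (SE 0.54), 0.11 for Ssadh (SE 0.080), -0.03 for sima (SE 0.070) and -0.12 for Hph (SE 0.092).

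**Figure D5:**
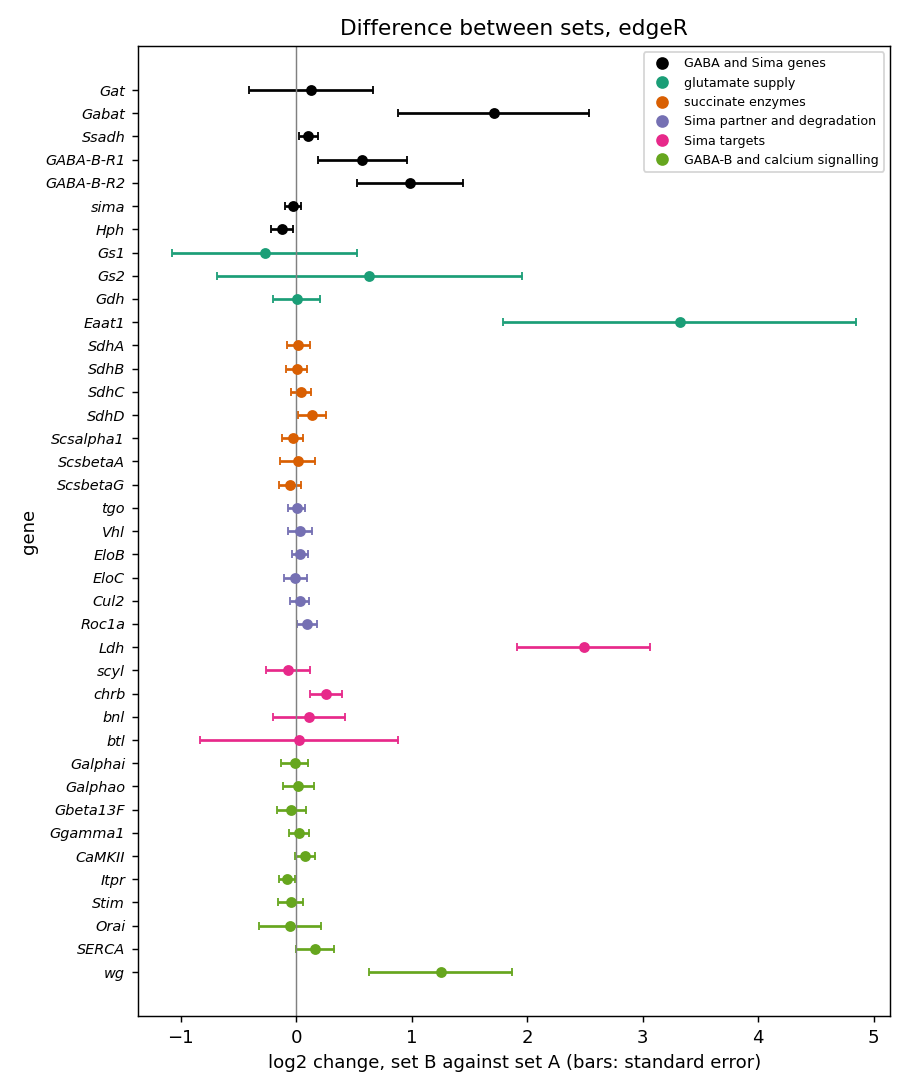
Log2 change between set B and set A for each tested gene of 6 lists, from edgeR, with bars for the standard error. The values of sima, Ssadh and Hph and of the succinate enzymes lie near 0, and Gabat, Eaat1, Ldh and wg lie to the right with wide bars.

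Among the related lists, edgeR called 0 genes, against the same background of 0% of tested genes. There were 4 glutamate supply genes tested, 7 succinate enzymes, 6 genes of Sima partnership and degradation, 5 Sima targets and 10 of GABA-B and calcium signalling. Their median log2 changes were 0.32, 0.01, 0.03, 0.11 and 0.00, beside a median of 0.00 over all tested genes. At an unadjusted p under 0.05 there was 1 gene, Ldh, beside 353 of the 8491 genes tested in all. Its values were higher in all 3 set B libraries than in any of set A, as for 4.53% of all tested genes. The log2 change of Ldh was 2.49 (SE 0.58, edgeR adjusted p = 0.9997). The genes of the remaining GABA machinery were too low to be tested.

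Whether the 8 genes vary together was examined over all 28 pairs, with log2(TPM + 1) in the 6 libraries. No pair passed adjustment, with a smallest adjusted exact permutation p of 0.408 for Pearson's r and 0.734 for Spearman's rho. An unadjusted exact permutation p under 0.05 for r was found for 2 pairs. Gabat and GABA-B-R2 had r = 0.869 (exact permutation p = 0.0403) and rho = 0.714 (exact permutation p = 0.136), and r was -0.546 without the 2 libraries farthest from the median of Gabat. GABA-B-R1 and Hph had r = -0.799 (exact permutation p = 0.0417) and rho = -0.667 (exact permutation p = 0.161), and r was 0.416 without the 2 libraries farthest from the median of GABA-B-R1. Set B replicate 1 is one of the libraries left out in each case, and without it alone r was 0.444 for the first pair and -0.459 for the second. With 3 libraries per set, the relation within a set was not computed.

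Genes with the most similar pattern over the 6 libraries were sought among 8094 others, by the Pearson r of log2(TPM + 1). As the highest of so many, these coefficients have no test, and r does not measure how large a change is. The closest to Gat were CG5612 (r = 0.997), which ranged from 16.55 TPM in set B replicate 3 to 110.28 TPM in set B replicate 2, and Ppt2 (r = 0.996). Those closest to Gabat were qkr54B (r = 0.995) and CG17724 (r = 0.993). Both were highest in set B replicate 1, at 21.71 and 21.31 TPM, against at most 17.5 and 14.08 TPM elsewhere. Gabat itself was at 30.82 TPM there and at most 6.72 TPM elsewhere. Closest to GABA-B-R2 were Taf8 (r = 0.997) and CG3918 (r = 0.996), and to Ssadh Naa20A (r = 0.989) and cnir (r = 0.987). MED26 (r = 0.996) and Cf2 (r = 0.992) lay closest to sima. Hph had the weakest best matches of the 6 genes with mean TPM of at least 1, in DNAlig4 (r = 0.949) and Pp2B-14D (r = 0.944).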

How the data were processed

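Libraries of polyadenylated RNA were sequenced from 6 samples. Per the submitters' processing notes, CASAVA 1.8.2, Trimmomatic 0.35, STAR 2.7.1a and RSEM 1.2.28 were used, with build BDGP6, and the strand setting in counting is not given in the sources used here. The authors deposited expected counts, which RSEM estimates per gene and which are not normalized. They also deposited TPM, scaled by the authors to effective length and to the same total in each library. Gene length, effective length and the posterior SD of the count come from the same tables.

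All 92 symbols of the members and lists were matched to the tables through Ensembl release 115 (BDGP6.54), which also gave positions, transcripts and exons. One gene of the glutamate list is not reported here. The members and lists were chosen with earlier results of these data known. Named genes are the 8 members, genes of the related lists, and the 2 genes per member with the most similar pattern. Comparisons across all genes used edgeR 4.0.16 in R 4.3.3 on rounded expected counts, with its expression filter, TMM, Benjamini-Hochberg adjustment and a threshold of 0.05, and were tested on simulated data. DESeq2 1.42.0 was an alternative. The labels do not say whether libraries came from separate larvae, so p-values measure the spread between these samples, which may be technical. Other computations used Python 3.11.15 and scipy 1.17.1. Shares of transcripts were bounded by linear programming from the weighted length.

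Deviations of same-numbered libraries of the 2 sets had r of -0.168, -0.282 and 0.367 for replicates 1, 2 and 3. Those of differently numbered libraries ran from -0.501 to 0.561. The replicate number was not used to pair libraries in the main test, though so few values cannot show that no pairing exists.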

Additional observations from a re-analysis of the deposited data

Results flagged for a closer look

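In 12 of the 52 values examined over the 6 libraries, 1 library stood apart by a gap beyond Dixon's 95% critical value. For normally distributed values, chance gives about 1 in 20, or 2.6 of 52. That rate need not hold here, since untransformed TPM was used, some genes were at 0 in 5 libraries, and the values are not independent. With no share of all genes that pass the same rule, the 12 cannot be set against chance. Of the 12, 9 were in set B replicate 1.

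Among the GABA and Sima genes, set B replicate 1 stood apart for Gad1, at 0.76 TPM with 0 elsewhere, for Gabat, at 30.82 TPM against a median of 3.48 TPM, and for GABA-B-R1, at 0.75 TPM against 0.34 TPM. The ratio of Hph to sima was lowest in that library, at 0.397 against a median of 0.477. Further genes highest there were GABA-B-R3 at 0.46 TPM, Rdl at 0.66 TPM, Lcch3 at 1.31 TPM, VGAT at 0.41 TPM and Eaat1 at 5.71 TPM. Summed neuron markers were 11.6-fold above the median of the other libraries in set B replicate 1, and the part of neural cells in these values was not tested.

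Ldh at 19.24 TPM and SERCA, the calcium pump gene, at 193 TPM stood apart in set B replicate 3, where summed muscle markers were 3.63 times the median elsewhere. Itpr stood apart in set A replicate 3, at 15.80 TPM against a median of 14.40 TPM.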

How the results depend on the processing

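Of the 7 tested genes (8 with no expression filter), 0 were called between sets under every alternative run: DESeq2, no expression filter, library totals in place of TMM, the replicate block, and each library left out in turn. Among all genes DESeq2 called 22 of 8491 and edgeR 0. With the replicate number as a block 0 of the 7 were called, and deviations of same-numbered libraries had r of -0.168, -0.282 and 0.367. Leaving out a library moved the log2 change of Gat between -0.40 and 0.585, with a change of sign without set A replicate 2 (-0.01), set A replicate 3 (-0.10) or set B replicate 2 (-0.40), and that of sima between -0.0653 and 0.000126, reached without set B replicate 3. That of Gabat ran from 0.33 to 2.15. A detection minimum of 5 TPM left 3 of the 8 genes, and 0.5 TPM left 5. The ratio of sima to Ssadh, examined after the values were seen, was 1.29 with full in place of effective length, against 1.2. With full length 5 neighbour pairs kept their order, and without set B replicate 1 there were 6, against 4. Depth limits Gad1 and the receptor genes, which rest on few reads. The ratio of Gat to Gad1 could not be computed, since Gad1 was listed at 0 in 5 libraries.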
